A study of Mus musculus with 20 samples.

Results

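The bitter taste receptor genes of the mouse, Tas2r followed by a number, were followed through RNA of medullary thymic epithelial cells (mTEC), epithelium of the thymic medulla in which maturing T cells meet the body's own antigens. Members were all rows of the deposited table whose symbol was Tas2r plus digits, 35 of 51810 genes. All groups were sorted mTEC from thymi of mice aged 4 to 5 weeks, enriched for EpCAM-positive cells on beads and sorted at 75000 cells a sample. The 4 groups, of 3 libraries each, were cHyper mTEChi (genotype Trp53-cHyper), WT mTEChi (genotype Trp53-WT), cHyper mTEClo and WT mTEClo. What cHyper stands for, any Cre driver, the sort gates and whether each replicate was 1 mouse are details that the sources used here do not give. The p-values therefore cover the variation among these libraries, which may be technical. The names mTEChi and mTEClo usually refer to high and low surface levels of MHC class II or CD80 protein. Levels of Cd80, the costimulatory ligand, averaged 166 CPM in cHyper mTEChi and 3.43 CPM in cHyper mTEClo, and 200 CPM in WT mTEChi and 6.996 CPM in WT mTEClo, as the names say. CPM here is the usual scaling of fragment counts by library size, on the TMM scale of edgeR, which corrects library totals for composition.

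Bitter taste receptors are G protein-coupled receptors that bind bitter, often toxic compounds. In taste buds they signal through the G protein gustducin, whose alpha subunit is Gnat3, to the phospholipase Plcb2, the IP3 receptor Itpr3 and the cation channel Trpm5. The same pathway runs in tuft cells, chemosensory epithelial cells of gut, airway and thymic medulla, which depend on the transcription factor Pou2f3 and make the cytokine Il25. In the mouse, Tas2r105 responds to cycloheximide, Tas2r108 to denatonium, and Tas2r138 is the counterpart of the human receptor for phenylthiocarbamide. For most other mouse members no ligand is named here.

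In the deposited coordinates (mm10) the members lie in 5 blocks, taking members less than 5 Mb apart as 1 block. Tas2r134 is alone on chromosome 2 and Tas2r119 alone on chromosome 15. On chromosome 6, Tas2r118 stands alone, 8 members lie between 40491233 and 42435464, and 24 between 131629823 and 133055816. Each member is a single exon of 882 to 1158 bases, and no other gene row of the table overlaps one. The largest block is the one that also holds salivary proline-rich protein genes.

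To show what precedes these genes, RefSeq windows of 250 bases before to 50 bases after the annotated start (GRCm38.p6) were matched by symbol for 31 of 35 members. In 29 of the 31 the annotated start is the ATG itself, so these windows describe the sequence before the start codon and not a mapped transcription start. Their median GC content was 37.0%, against 52.7% over 32851 promoters. The octamer ATGCAAAT, searched on both strands as the letters bound by POU-domain factors, the class to which Pou2f3 belongs, occurred in 7 of 31 members (22.6%) and in 1.74% of all promoters. Among the 12108 promoters with a GC content at or under 49%, the highest of any member, it occurred in 2.81%. TATAAA, which neither contains the octamer nor lies in it, occurred in 10 of 31 members (32.3%), in 13.6% of all promoters and in 26.2% of those at or under 49% GC. Of the 7 members with the octamer, Tas2r118, Tas2r137, Tas2r108, Tas2r144, Tas2r135 and Tas2r126 lie in the proximal part of chromosome 6, and all 6 read it as ATTTGCAT, beginning 124 to 194 bases before the start. Tas2r107, in the large distal block, reads ATGCAAAT, 236 bases before the start.

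Below are the stretches before the deposited gene start of 5 members, 5′ to 3′, on the strand of the gene, with the octamer in capitals. The first is the member at the highest level, Tas2r108 (chr6:40493342-40493528, plus strand). Tas2r118 (chr6:23970061-23970310, minus strand) had the smallest p for the genotype in mTEClo, and Tas2r126 (chr6:42434285-42434534, plus strand) is the most distal of the 6. Without the octamer are Tas2r105 (chr6:131687496-131687713, minus strand), the cycloheximide receptor, and Tas2r113 (chr6:132892761-132893010, plus strand). The level of Tas2r113 was not lower in cHyper mTEClo than in WT mTEClo, and whether it differs from other members was not tested. Sequences are from RefSeq. A match is a run of letters and not a binding site.
Tas2r108: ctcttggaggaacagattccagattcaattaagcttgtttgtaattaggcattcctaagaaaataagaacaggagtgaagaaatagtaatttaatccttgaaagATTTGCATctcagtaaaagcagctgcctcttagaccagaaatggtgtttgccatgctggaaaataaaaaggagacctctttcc
Tas2r118: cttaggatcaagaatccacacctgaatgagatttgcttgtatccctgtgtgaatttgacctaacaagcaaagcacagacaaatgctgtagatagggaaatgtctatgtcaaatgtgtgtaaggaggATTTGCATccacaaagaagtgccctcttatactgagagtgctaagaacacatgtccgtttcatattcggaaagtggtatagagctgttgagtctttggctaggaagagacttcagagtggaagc
Tas2r126: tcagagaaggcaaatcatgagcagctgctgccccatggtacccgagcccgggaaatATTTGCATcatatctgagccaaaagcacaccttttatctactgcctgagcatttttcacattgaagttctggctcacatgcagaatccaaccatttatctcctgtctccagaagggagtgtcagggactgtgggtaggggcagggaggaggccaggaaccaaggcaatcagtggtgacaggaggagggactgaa
Tas2r105: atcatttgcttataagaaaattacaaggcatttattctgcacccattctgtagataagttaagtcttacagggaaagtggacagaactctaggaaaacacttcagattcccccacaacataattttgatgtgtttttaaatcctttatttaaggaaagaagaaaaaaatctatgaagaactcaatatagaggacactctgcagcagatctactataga
Tas2r113: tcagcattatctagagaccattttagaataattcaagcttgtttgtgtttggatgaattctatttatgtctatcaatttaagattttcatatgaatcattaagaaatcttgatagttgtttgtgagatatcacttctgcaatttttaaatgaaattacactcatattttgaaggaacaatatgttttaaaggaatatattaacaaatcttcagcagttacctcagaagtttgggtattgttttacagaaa

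Library totals were 22023800 to 47926607 fragments, with replicate 3 of each group at the lower end (22023800 to 25306137 fragments). Replicate 3 also differed from replicates 1 and 2 in its level of the X-inactivation transcript Xist and in its number of sequencing runs, in every group alike, so sex, depth and run scheme are balanced over the groups. Trp53 itself, which the genotype names, averaged 134 ± 4.65 CPM in cHyper mTEChi and 101 ± 4.60 in WT mTEChi, and 166 ± 11.6 in cHyper mTEClo and 137 ± 0.958 in WT mTEClo (SD, n = 3 each). In all 12 libraries more genes stood at 2 fragments than at 1, and at 4 than at 3, and why was not tested. Intervals and floors given for counts cover counting error only and take fragments as independent. If some are not, those intervals, the allowance for 0 fragments and the lower bounds of folds below are too tight.

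All 35 members had a fragment in at least 1 library, and 26 had one in all 4 groups. In any library of the group, 30 members had a fragment in cHyper mTEChi, 30 in WT mTEChi, 32 in cHyper mTEClo and 33 in WT mTEClo. Per library, 17 to 28 members were seen in cHyper mTEChi, 17 to 26 in WT mTEChi, 31 to 32 in cHyper mTEClo and 31 to 33 in WT mTEClo. Thinned to the depth of the shallowest library, the expected number was 16.9 to 25.8 in cHyper mTEChi, 16.9 to 24.1 in WT mTEChi, 29.7 to 31.5 in cHyper mTEClo and 31.0 to 32.6 in WT mTEClo. At least 10 fragments in every library of the group were reached by 1 member in cHyper mTEChi and 1 in WT mTEChi, Tas2r108 in both, and by 19 members in cHyper mTEClo and 26 in WT mTEClo. Detection of single members was thus close to the counting limit in mTEChi and well above it in mTEClo.

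The filter on low counts left 28 members for the main test. Of these, 9 reached its level in all 3 libraries of WT mTEClo and of no other group. All of those 9 but Tas2r123 and Tas2r103 needed WT mTEClo to pass. The 7 members left out of the test, Tas2r134, Tas2r139, Tas2r144, Tas2r143, Tas2r114, Tas2r122 and Tas2r124, were too low. Fragment counts below are those of replicates 1, 2 and 3 in that order. Tas2r139 was seen only in cHyper mTEChi, with 1, 5 and 1 fragments, and Tas2r122 only in WT mTEChi, with 0, 2 and 0. Tas2r114 was seen only in WT mTEClo, with 3, 2 and 2 fragments. At 0 fragments in a group, up to 3 fragments over that group are allowed by counting. Tas2r144 had 3, 0 and 2 fragments in cHyper mTEChi, 0 in each WT mTEChi library, 10, 4 and 6 in cHyper mTEClo, and 4, 1 and 0 in WT mTEClo. It was among the few members with a higher total in cHyper than in WT mTEClo, 20 against 5 fragments. Tas2r143, its neighbour, had 0 in each cHyper mTEChi library, 2, 0 and 2 in WT mTEChi, 2, 3 and 1 in cHyper mTEClo, and 4, 8 and 4 in WT mTEClo. Tas2r134 had 2, 2 and 0 in cHyper mTEChi, 0 in each WT mTEChi library, 3, 2 and 0 in cHyper mTEClo, and 5, 4 and 5 in WT mTEClo. Tas2r124 had 0 in each cHyper mTEChi library, 2, 0 and 0 in WT mTEChi, 5, 2 and 1 in cHyper mTEClo, and 4, 12 and 0 in WT mTEClo. All 7 stayed at or under 12 fragments in every library.

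**Figure D1:**
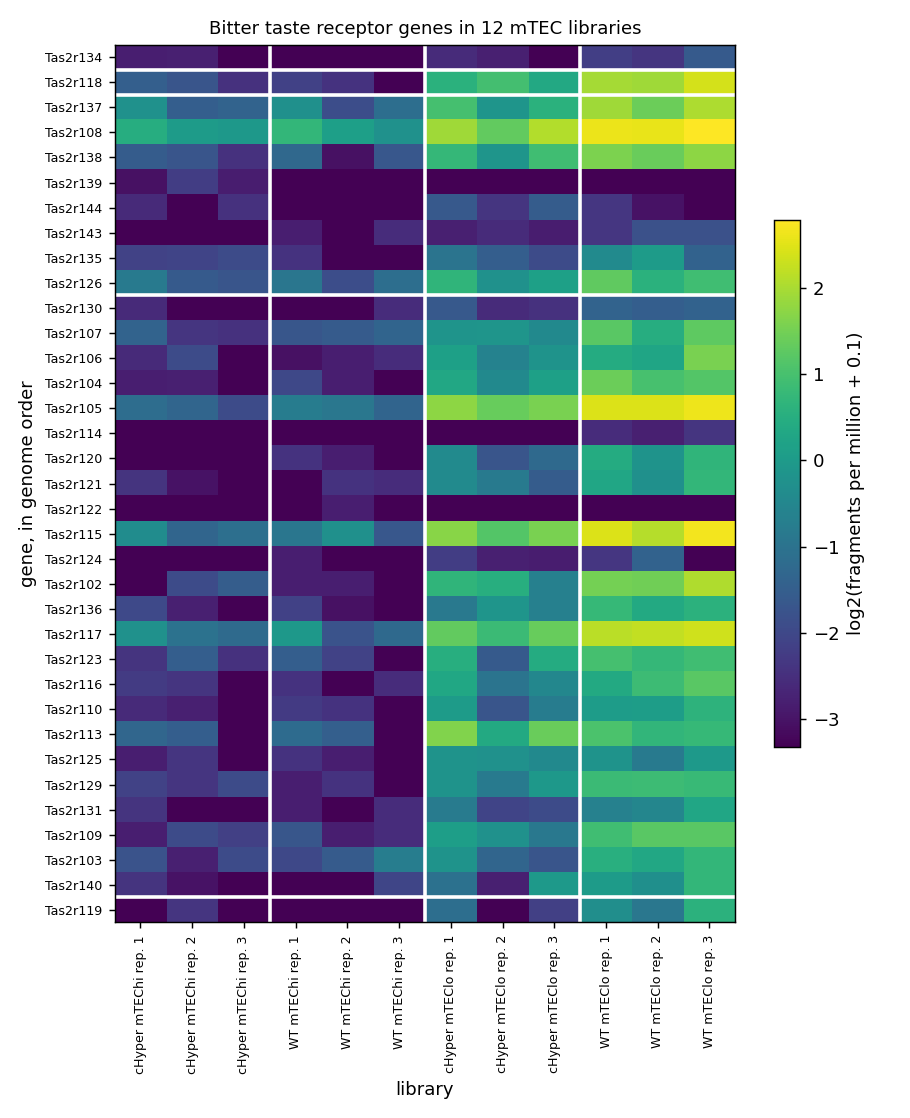
Level of each of the 35 bitter taste receptor genes (rows, in genome order, white lines between blocks) in the 12 libraries (columns, white lines between groups), as log2 of CPM plus 0.1. The columns of both mTEChi groups are darker than those of both mTEClo groups in nearly every row, and WT mTEClo is the brightest group.

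Compared per gene length in TPM (deposited values scaled for gene length and depth), the family had a steep and shared order of levels. The 5 members at the highest mean TPM over all libraries were Tas2r108, Tas2r105, Tas2r115, Tas2r117 and Tas2r118. Together they held 47.3% of the family's fragments in cHyper mTEChi, 49.9% in WT mTEChi, 41.6% in cHyper mTEClo and 41.4% in WT mTEClo. Tas2r108 (chromosome 6, 40493529 to 40494541, ENSMUSG00000037140) was first in each group, at 2.35 ± 0.661 TPM in cHyper mTEChi, 2.70 ± 1.15 in WT mTEChi, 7.12 ± 1.99 in cHyper mTEClo and 13.2 ± 0.805 in WT mTEClo (SD, n = 3 each). In WT mTEClo, Tas2r105 followed at 12.5 ± 0.621 TPM, Tas2r115 at 10.96 ± 2.13, Tas2r118 at 9.92 ± 1.69 and Tas2r117 at 8.55 ± 0.404, and no 2 neighbours in that order differed beyond their SDs. The low end of the order was Tas2r122, at a mean of 0.0094 TPM over all libraries, with Tas2r139 and Tas2r114 just above it. As a description over the 35 members, Spearman's rho of mean TPM was 0.94 between cHyper mTEClo and WT mTEClo and 0.79 between cHyper mTEChi and WT mTEChi. Libraries share gene lengths and mapping, which also order the genes.

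The first comparison asked how the family differs between mTEChi, the stage that expresses Aire, and mTEClo within each genotype. Bitter receptor RNA was far lower in mTEChi. Summed over the 35 members it was 5.08 ± 1.71 CPM in cHyper mTEChi and 30.2 ± 7.13 CPM in cHyper mTEClo, and 5.09 ± 1.70 CPM in WT mTEChi and 63.1 ± 9.03 CPM in WT mTEClo (SD, n = 3 each). The highest mTEChi library of either genotype, at 7.04 CPM, was below the lowest mTEClo library, at 22.8 CPM. With every gene kept that had a fragment, 25 of 35 members were called lower in cHyper mTEChi than in cHyper mTEClo (edgeR adjusted p under 0.05), against 16.8% of all genes. In WT the same fit called 29 of 35 lower, against 19.4% of all genes, and in neither genotype was a member called higher. In the filtered fit 25 of 28 tested members were called lower in cHyper (25.8% of all genes) and 28 of 28 in WT (29.4%), but members that passed through mTEClo alone had to be lower in mTEChi. The same limit holds for the median log2 fold change of the tested members. It was -2.84 in cHyper, where that of all genes tested was 0.13, and -4.05 in WT, where it was 0.12. Both medians are the same with Tas2r120 (cHyper) and Tas2r119 (WT), which had no fragment in the mTEChi group, set at their lower bounds. With every gene kept that had a fragment, the medians over 35 members were -2.81 in cHyper and -3.92 in WT. Those over all genes were then 0.28 and 0.51. Every mTEChi library was below every mTEClo library for 27 of 33 members with a fragment in cHyper and for 31 of 34 in WT, tested or not. Over the genes that passed the filter this held for 28.4% in cHyper and 31.4% in WT. The reverse held for 1 member in cHyper, Tas2r139, with 1, 5 and 1 fragments in mTEChi and 0 in mTEClo. In WT it held for 0 members. The comparisons within the 2 genotypes share no library.

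**Figure D2:**
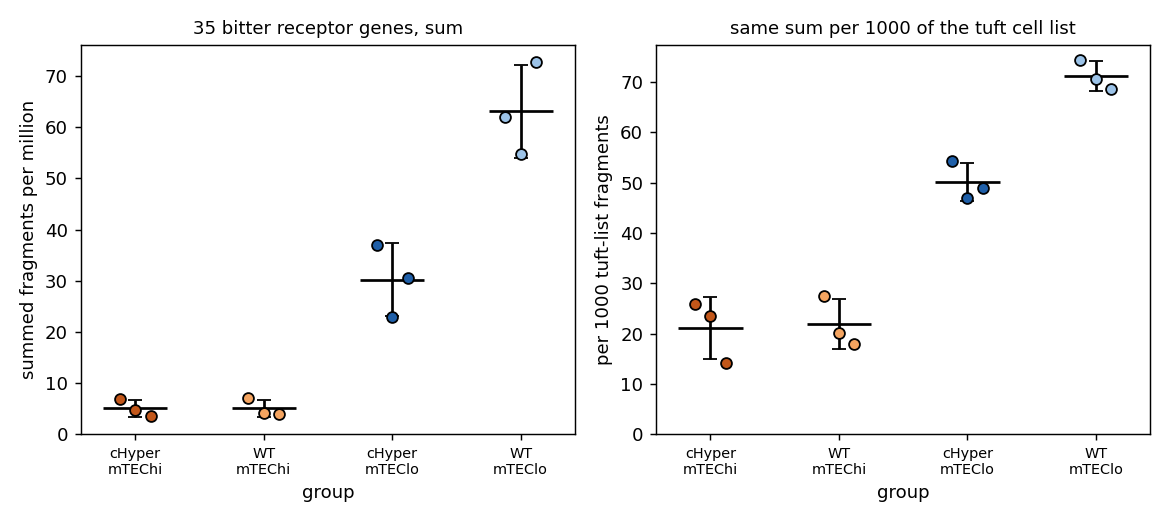
Left, summed CPM of the 35 bitter taste receptor genes in each library (points), with the group mean (horizontal line) and SD (bars, n = 3); right, the same sum per 1000 fragments of 14 tuft cell genes. On the left both mTEChi groups lie near 5 CPM, cHyper mTEClo between 22.8 and 37.1 and WT mTEClo between 54.7 and 72.7; on the right both mTEChi groups lie under both mTEClo groups, and cHyper mTEClo under WT mTEClo.

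In the proximal part of chromosome 6 lies the member with the most fragments in mTEChi. This receptor, Tas2r108, had 59, 40 and 21 fragments in cHyper mTEChi, 73, 46 and 21 in WT mTEChi, 160, 105 and 102 in cHyper mTEClo, and 255, 256 and 145 in WT mTEClo. In CPM the groups of the 2 cell types did not overlap in either genotype, and the log2 fold change was -1.70 (SE 0.29, edgeR adjusted p = 0.000113) in cHyper and -2.47 (SE 0.28, edgeR adjusted p = 2.05e-06) in WT. Tas2r137 had 34, 11 and 7 fragments in cHyper mTEChi, 35, 8 and 10 in WT mTEChi, 82, 35 and 34 in cHyper mTEClo, and 156, 110 and 85 in WT mTEClo. For Tas2r126 the counts were 21, 10 and 5 in cHyper mTEChi, 20, 8 and 10 in WT mTEChi, 66, 33 and 25 in cHyper mTEClo, and 100, 60 and 38 in WT mTEClo. These last 2 members were 7.79-fold and 5.79-fold lower in WT mTEChi than in WT mTEClo, and both genotypes were called. Tas2r138, the counterpart of the human phenylthiocarbamide receptor, had 11, 9 and 2 fragments in cHyper mTEChi, 15, 1 and 6 in WT mTEChi, 69, 35 and 44 in cHyper mTEClo, and 123, 109 and 70 in WT mTEClo. It was 15.6-fold lower in WT mTEChi (log2 -3.96, SE 0.53, edgeR adjusted p = 1.04e-05). Tas2r135 had 6, 6 and 4 fragments in cHyper mTEChi, 4, 0 and 0 in WT mTEChi, 18, 11 and 4 in cHyper mTEClo, and 28, 40 and 6 in WT mTEClo. In cHyper the groups overlapped (log2 -0.98, SE 0.68, edgeR adjusted p = 0.22), and in WT it was called lower in mTEChi (log2 -4.18, SE 0.79, edgeR adjusted p = 0.000257). Over the 8 members of this block the sum was 2.097 CPM in WT mTEChi and 15.2 in WT mTEClo, a 7.26-fold difference, against 14.6-fold for the 24 members of the distal block.

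Tas2r118 (chromosome 6, 23969161 to 23970060, ENSMUSG00000043865), counterpart of the human receptor for salicin, showed a larger difference. It had 12, 9 and 2 fragments in cHyper mTEChi, 6, 4 and 0 in WT mTEChi, 61, 81 and 29 in cHyper mTEClo, and 161, 158 and 109 in WT mTEClo. That is 7.43-fold lower in cHyper mTEChi (log2 -2.89, SE 0.43, edgeR adjusted p = 3.31e-05) and 49.5-fold lower in WT mTEChi (log2 -5.63, SE 0.47, edgeR adjusted p = 7.25e-08). Tas2r119 on chromosome 15 had 0, 4 and 0 fragments in cHyper mTEChi, 0 in each WT mTEChi library, 16, 0 and 3 in cHyper mTEClo, and 30, 19 and 30 in WT mTEClo. In cHyper its libraries overlapped (edgeR adjusted p = 0.156), and in WT it was called (edgeR adjusted p = 0.000766), at least 29.8-fold lower when 3 fragments over the group are allowed.

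In the distal block of chromosome 6, Tas2r105 (131686532 to 131687495, ENSMUSG00000051153) was the most abundant over all libraries and in both mTEClo groups. In both mTEChi groups Tas2r115 and Tas2r117 had more fragments. Those of Tas2r105 were 16, 13 and 4 in cHyper mTEChi, 23, 20 and 8 in WT mTEChi, 143, 108 and 70 in cHyper mTEClo, and 230, 233 and 129 in WT mTEClo. Its log2 fold change between the cell types was -3.31 (SE 0.28, edgeR adjusted p = 1.15e-07) in cHyper and -3.75 (SE 0.27, edgeR adjusted p = 1.25e-08) in WT, and groups did not overlap. Tas2r115 had 31, 13 and 9 fragments in cHyper mTEChi, 20, 34 and 6 in WT mTEChi, 139, 92 and 70 in cHyper mTEClo, and 230, 181 and 134 in WT mTEClo. Counts of Tas2r117 were 34, 17 and 8 in cHyper mTEChi, 40, 9 and 9 in WT mTEChi, 105, 74 and 61 in cHyper mTEClo, and 183, 198 and 107 in WT mTEClo. These 2 receptors were 10.9-fold and 9.83-fold lower in WT mTEChi. Tas2r102 showed the largest WT difference among members with a fragment in both WT groups, 87.1-fold (log2 -6.44, SE 0.74, edgeR adjusted p = 2.09e-06). Its counts were 0, 7 and 6 in cHyper mTEChi, 2, 2 and 0 in WT mTEChi, 65, 58 and 13 in cHyper mTEClo, and 117, 114 and 87 in WT mTEClo.

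The other members upstream in that block were low in mTEChi and moderate in mTEClo. Tas2r107 had 13, 4 and 2 fragments in cHyper mTEChi, 10, 11 and 8 in WT mTEChi, 35, 35 and 16 in cHyper mTEClo, and 94, 56 and 49 in WT mTEClo. Tas2r106 had 3, 7 and 0 in cHyper mTEChi, 1, 2 and 2 in WT mTEChi, 44, 24 and 19 in cHyper mTEClo, and 53, 48 and 61 in WT mTEClo. Both were called lower in mTEChi in each genotype, Tas2r106 37.7-fold in WT. Tas2r104 had 2, 2 and 0 in cHyper mTEChi, 7, 2 and 0 in WT mTEChi, 51, 28 and 25 in cHyper mTEClo, and 108, 82 and 45 in WT mTEClo. Tas2r130 was the lowest of the tested members, with 3, 0 and 0 fragments in cHyper mTEChi, 0, 0 and 2 in WT mTEChi, 10, 3 and 2 in cHyper mTEClo, and 12, 11 and 6 in WT mTEClo. It was not called in cHyper (edgeR adjusted p = 0.0794) and was called in WT (edgeR adjusted p = 0.00467). Tas2r120 had no fragment in cHyper mTEChi, 4, 2 and 0 in WT mTEChi, 29, 9 and 8 in cHyper mTEClo, and 53, 34 and 32 in WT mTEClo, and was at least 15.5-fold lower in cHyper mTEChi. Tas2r121 had 4, 1 and 0 in cHyper mTEChi, 0, 4 and 2 in WT mTEChi, 29, 20 and 6 in cHyper mTEClo, and 48, 32 and 33 in WT mTEClo. In CPM both differed without overlap in each genotype. Tas2r136 had 7, 2 and 0 in cHyper mTEChi, 6, 1 and 0 in WT mTEChi, 20, 35 and 13 in cHyper mTEClo, and 68, 52 and 30 in WT mTEClo, and was called lower in both.

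The members further along the block were each called lower in mTEChi in both genotypes. Tas2r123 had 4, 11 and 2 fragments in cHyper mTEChi, 12, 6 and 0 in WT mTEChi, 58, 10 and 31 in cHyper mTEClo, and 80, 68 and 38 in WT mTEClo. Its closest relative Tas2r110 had 3, 2 and 0 in cHyper mTEChi, 5, 4 and 0 in WT mTEChi, 40, 9 and 12 in cHyper mTEClo, and 40, 41 and 31 in WT mTEClo. The transcripts of this pair are 86.3% identical, with a longest identical run of 120 bases, the closest pair of the family, so their split between the 2 genes is less certain. Tas2r116 had 5, 4 and 0 in cHyper mTEChi, 4, 0 and 2 in WT mTEChi, 50, 18 and 15 in cHyper mTEClo, and 51, 74 and 48 in WT mTEClo. Tas2r129 had 6, 4 and 4 in cHyper mTEChi, 2, 4 and 0 in WT mTEChi, 34, 20 and 21 in cHyper mTEClo, and 72, 74 and 35 in WT mTEClo. Both were called lower in mTEChi in each genotype, Tas2r129 5.38-fold in cHyper and 32.5-fold in WT. Tas2r109 had 2, 7 and 3 in cHyper mTEChi, 10, 2 and 2 in WT mTEChi, 43, 33 and 11 in cHyper mTEClo, and 75, 96 and 48 in WT mTEClo. It is 81.6% identical to Tas2r117, with a longest identical run of 77 bases. Tas2r131 had 4, 0 and 0 in cHyper mTEChi, 2, 0 and 2 in WT mTEChi, 21, 6 and 4 in cHyper mTEClo, and 23, 26 and 24 in WT mTEClo. Tas2r103 had 9, 2 and 4 in cHyper mTEChi, 7, 11 and 14 in WT mTEChi, 34, 13 and 5 in cHyper mTEClo, and 57, 50 and 33 in WT mTEClo. With Tas2r103 the WT difference was 4.75-fold, the smallest of the tested members. Tas2r140 had 4, 1 and 0 in cHyper mTEChi, 0, 0 and 4 in WT mTEChi, 17, 2 and 22 in cHyper mTEClo, and 39, 31 and 33 in WT mTEClo. In cHyper the libraries of Tas2r140, like those of Tas2r123, overlapped although the test called it (edgeR adjusted p = 0.0221).

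In cHyper, 4 of the 25 calls ended when single libraries were left out. Tas2r137, Tas2r131 and Tas2r103 were not called without cHyper mTEClo replicate 1 or cHyper mTEChi replicate 2, at edgeR adjusted p of 0.0572 to 0.0602, 0.0712 to 0.118 and 0.122 to 0.221. Tas2r140 was not called without cHyper mTEClo replicate 3, cHyper mTEChi replicate 2 or cHyper mTEChi replicate 3 (edgeR adjusted p = 0.0548 to 0.0954). In WT each of the 28 calls held with any 1 library left out.

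The second comparison asked what the cHyper genotype does to the family in mTEClo. Bitter receptor RNA was lower in cHyper. The sum was 37.1, 22.8 and 30.6 CPM in the cHyper mTEClo libraries and 61.9, 54.7 and 72.7 CPM in the WT mTEClo libraries, a ratio of group means of 0.478, and the groups did not overlap. Leaving out any 1 of these libraries gave ratios of 0.423 to 0.536. Of 33 members with a fragment in mTEClo, tested or not, 26 had every cHyper library below every WT library in CPM, and none had every cHyper library above. Among genes that passed the filter and had a fragment in mTEClo, these shares were 13.0% and 12.2%. Member by member the test was weaker. It called 6 of 28 tested members lower and none higher (edgeR adjusted p under 0.05), against 4.64% of all genes called lower and 4.53% called higher, and 20 had an unadjusted p under 0.05. With no filter on low counts 12 of 35 were called lower, against 3.37% of all genes. These were the 6 and Tas2r137, Tas2r104, Tas2r115, Tas2r102, Tas2r117 and Tas2r103. DESeq2 called 12 members and limma-voom 13, all of them lower. The count also leaned on single libraries, falling to 1 without cHyper mTEClo replicate 2, to 2 without WT mTEClo replicate 1 or replicate 3, and to 3 without WT mTEClo replicate 2. The median log2 fold change of the 28 tested members was -1.22, against 0.00147 over all genes tested. Of the 28 members, 9 reached the filter's level throughout WT mTEClo, where they were high, and throughout no other group. All of those 9 but Tas2r123 and Tas2r103 needed WT mTEClo to pass. The median of -1.22 and the 6 of 28 are therefore descriptions of the members that passed.

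**Figure D3:**
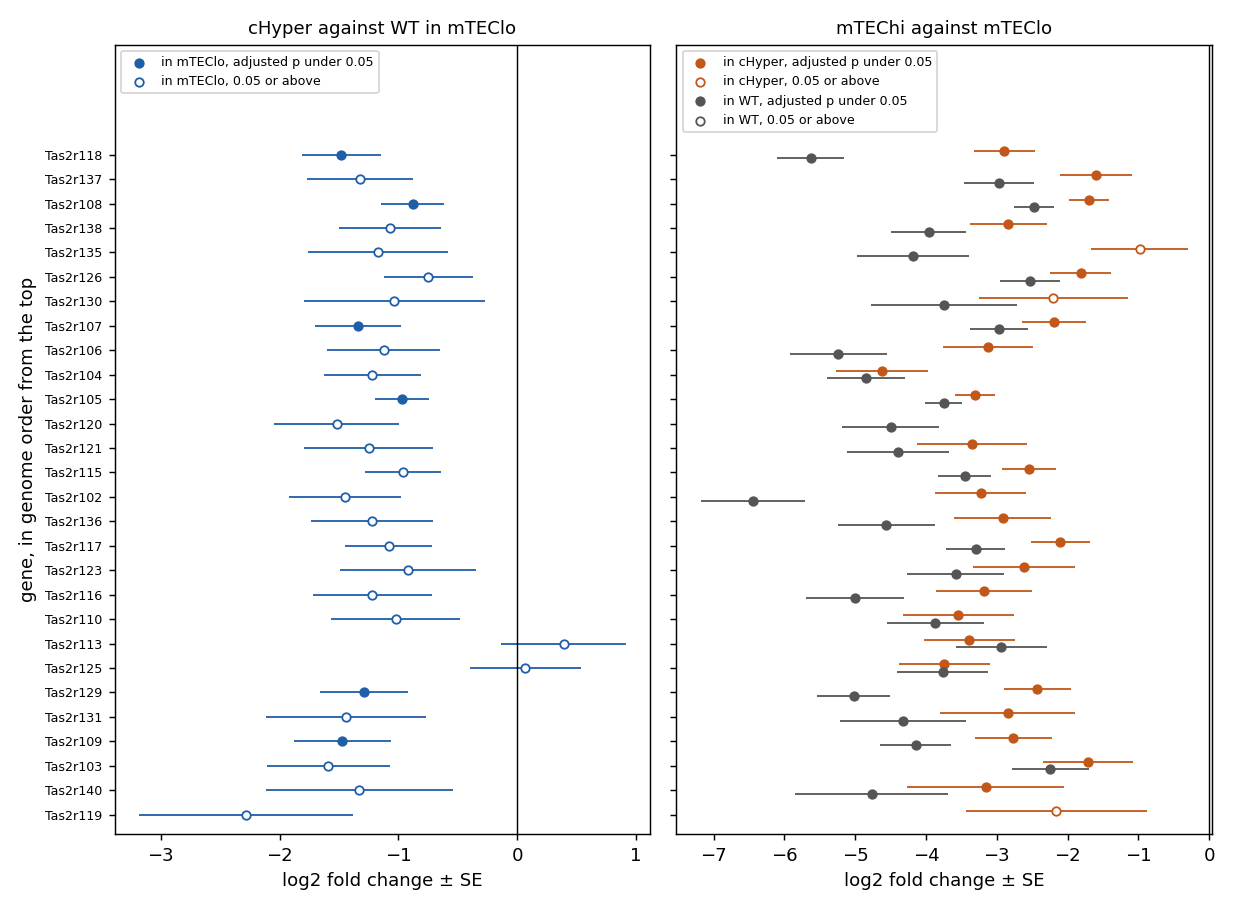
Log2 fold change (points) with its SE (bars) of the 28 tested bitter taste receptor genes for cHyper against WT in mTEClo (left) and for mTEChi against mTEClo in each genotype (right); filled points have an edgeR adjusted p under 0.05. On the left all points but Tas2r113 and Tas2r125 lie below 0 and 6 are filled; on the right all lie below 0, and Tas2r119 in WT and Tas2r120 in cHyper, at 0 fragments in mTEChi, are not drawn.

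The 6 receptors called lower in cHyper mTEClo come from the 2 largest blocks and from Tas2r118. Tas2r118 averaged 1.48 ± 0.348 CPM in cHyper mTEClo and 4.19 ± 0.802 in WT mTEClo (SD, n = 3 each), a log2 fold change of -1.48 (SE 0.34, edgeR adjusted p = 0.0123), and it was called with any 1 of the 12 libraries left out. Tas2r105, the cycloheximide receptor, averaged 2.87 ± 0.392 CPM in cHyper mTEClo and 5.62 ± 0.369 in WT mTEClo (SD, n = 3 each). Its log2 fold change was -0.97 (SE 0.22, edgeR adjusted p = 0.0138), and it lost the call only without cHyper mTEClo replicate 2 (edgeR adjusted p = 0.0634). Tas2r107 was 2.53-fold lower (log2 -1.34, SE 0.36, edgeR adjusted p = 0.0325). It was not called without any 1 of the 3 cHyper mTEClo libraries or WT mTEClo replicates 1 or 3 (edgeR adjusted p = 0.0731 to 0.113). Tas2r109 was 2.77-fold lower (log2 -1.47, SE 0.41, edgeR adjusted p = 0.0356). Its call ended without cHyper mTEClo replicates 2 or 3 or any 1 of the WT mTEClo libraries (edgeR adjusted p = 0.0589 to 0.0996). Tas2r129 was 2.45-fold lower (log2 -1.29, SE 0.37, edgeR adjusted p = 0.0439), and Tas2r108, the denatonium receptor, 1.84-fold lower (log2 -0.88, SE 0.26, edgeR adjusted p = 0.0498). These last 2 calls were marginal and each ended in 9 of the 12 omissions. Tas2r129 held only without cHyper mTEClo replicate 3, WT mTEChi replicate 2 or WT mTEChi replicate 3 (edgeR adjusted p otherwise 0.05004 to 0.165). Tas2r108 held only without cHyper mTEClo replicate 3, WT mTEChi replicate 1 or WT mTEChi replicate 3 (edgeR adjusted p otherwise 0.0530 to 0.185). In CPM none of the 6 had overlapping groups.

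The abundant Tas2r115 and Tas2r117 had differences of the same size without passing the test. Tas2r115 was at 2.71 ± 0.543 CPM in cHyper mTEClo and 5.30 ± 1.05 in WT mTEClo (log2 -0.96, SE 0.32, edgeR adjusted p = 0.0803), and Tas2r117 at 2.19 ± 0.429 and 4.64 ± 0.352 CPM in the same groups (log2 -1.08, SE 0.36, edgeR adjusted p = 0.0812). SDs are over 3 libraries each. The sums of the 2 large blocks differed to a like degree. The proximal block of 8 members had 7.76 ± 2.24 CPM in cHyper mTEClo and 15.2 ± 1.497 in WT mTEClo, a ratio of 0.510, and the distal block of 24 had 20.7 ± 5.12 and 42.7 ± 6.37 CPM, a ratio of 0.485.

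Tas2r113 and Tas2r125, neighbours in the distal block, were the 2 tested members whose level was not lower in cHyper mTEClo. Tas2r113 (132893011 to 132893940, ENSMUSG00000056926) had 14, 11 and 0 fragments in cHyper mTEChi, 16, 12 and 0 in WT mTEChi, 131, 53 and 62 in cHyper mTEClo, and 84, 66 and 34 in WT mTEClo. Its mTEClo groups overlapped, at 2.24 ± 0.919 CPM in cHyper and 1.70 ± 0.246 in WT (log2 0.39, SE 0.53, edgeR adjusted p = 0.721). Between the cell types it was like the rest, with a log2 fold change of -3.39 in cHyper and -2.93 in WT. It made up 7.30% of the family's fragments in cHyper mTEClo and 2.81% in WT mTEClo, and by TPM it ranked 4 in cHyper mTEClo and 15 in WT mTEClo. Tas2r125 had 2, 4 and 0 fragments in cHyper mTEChi, 4, 2 and 0 in WT mTEChi, 34, 33 and 16 in cHyper mTEClo, and 33, 20 and 19 in WT mTEClo (log2 0.07, SE 0.47, edgeR adjusted p = 0.984 in mTEClo). Whether these 2 differ from the other members in their response was not tested. The remaining members whose mTEClo groups overlapped in CPM were Tas2r144, Tas2r135, Tas2r126, Tas2r124 and Tas2r140.

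The same genotype comparison in mTEChi gave no called member. The sum was 6.91, 4.79 and 3.53 CPM in the cHyper mTEChi libraries and 7.04, 4.26 and 3.97 CPM in the WT mTEChi libraries, a ratio of group means of 0.998 that ran from 0.818 to 1.23 with 1 library left out. Of 28 tested members, 0 were called (edgeR adjusted p under 0.05), 2 had an unadjusted p under 0.05, and DESeq2 and limma-voom called 0, against 1.98% of all genes called either way. With the replicate number as a block 0 members were called, while the calls over all genes were 1250 with it and 572 without. Those 2 were Tas2r120, at 0 fragments over cHyper mTEChi and 6 over WT mTEChi (edgeR adjusted p = 0.283), and Tas2r135, at 16 fragments over cHyper mTEChi and 4 over WT mTEChi (log2 2.03, SE 0.92, edgeR adjusted p = 0.318). For Tas2r135, Tas2r129 and Tas2r139 every cHyper library was above every WT library, 3 of 34 members with a fragment, tested or not. Among genes that passed the filter the share was 12.4%. For Tas2r108, with the most fragments in mTEChi, the ratio of pooled counts was 0.916, with a 95% counting interval of 0.712 to 1.18. The depth therefore left room for changes of most single members in mTEChi.

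The difference between the 2 genotype effects, mTEChi minus mTEClo, had a median log2 of 1.16 over the 28 tested members, against 0.0212 over all genes tested. As it includes the same members that needed WT mTEClo to pass the filter, it too is only a description. None passed the test (0 called by edgeR and by limma-voom, 5 with an unadjusted p under 0.05, 2.06% of all genes called). The 2 smallest p-values were those of Tas2r118, with a difference of 2.74 (SE 0.69, edgeR adjusted p = 0.0590), and Tas2r129, with 2.59 (SE 0.77, edgeR adjusted p = 0.110). DESeq2 called 2 members, Tas2r118 and Tas2r102, and edgeR without the filter called Tas2r118. Thus, for single receptors, a smaller genotype effect in mTEChi than in mTEClo was not established by the main test.

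The genes that carry the signal of these receptors gave a similar picture at higher levels. Of the 10 listed, 5 were called lower in cHyper mTEChi than in cHyper mTEClo and 2 higher, and in WT 6 were lower and 1 higher, against 25.8% and 29.4% of all genes called lower in those genotypes. With the replicate number as a block 6 were lower in cHyper. Gnat3, the alpha subunit of gustducin, averaged 9.51 CPM in WT mTEChi and 87.2 in WT mTEClo, 9.10-fold lower (edgeR adjusted p = 3.00e-07). Trpm5, the channel at the end of the pathway, averaged 30.5 CPM in WT mTEChi and 150 in WT mTEClo (4.91-fold lower, edgeR adjusted p = 2.52e-07), and Plcb2, the phospholipase, 20.5 and 84.8 CPM in those groups. Rgs21, a regulator of G protein signalling in taste cells, was 11.1-fold lower in WT mTEChi (edgeR adjusted p = 9.24e-09). Itpr3, the IP3 receptor, went the other way, at 139 CPM in cHyper mTEChi and 55.0 in cHyper mTEClo, and at 161 CPM in WT mTEChi and 71.3 in WT mTEClo (log2 1.18 in WT, edgeR adjusted p = 8.31e-08). For the genotype in mTEClo 4 of 10 were called lower and none higher (4.64% of all genes were called lower), and in mTEChi none was called. Without the filter on low counts 7 of the 10 were called lower in mTEClo. Those 4 were Rgs21, at 9.86 CPM in cHyper mTEClo and 19.9 in WT mTEClo (log2 -1.01, edgeR adjusted p = 0.00779), the gustducin gamma subunit Gng13, at 12.2 and 23.4 CPM in the same groups (log2 -0.95, edgeR adjusted p = 0.00706), Trpm5 (log2 -0.72, edgeR adjusted p = 0.0416) and Itpr3 (log2 -0.37, edgeR adjusted p = 0.0283). Without cHyper mTEClo replicate 2 or WT mTEClo replicate 3, 2 of the 10 were called. The Trpm5 call ended without any of cHyper mTEClo replicates 1 and 2, WT mTEClo replicates 1 and 3, and cHyper mTEChi replicate 2 (edgeR adjusted p = 0.0516 to 0.138), and the Itpr3 call without the first 4 of these (0.0554 to 0.114). Gnat3, at 51.5 CPM in cHyper mTEClo and 87.2 in WT mTEClo, did not pass (log2 -0.76, edgeR adjusted p = 0.11).

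Of the 3 receptors for sweet and umami taste, which share that pathway, 2 were called lower and 1 higher in WT mTEChi. Over all genes tested these shares were 29.4% and 40.2%. Tas1r3, the subunit common to both tastes, averaged 7.63 CPM in WT mTEChi and 12.5 in WT mTEClo (log2 -0.71, edgeR adjusted p = 0.00153). Tas1r1, the umami subunit, averaged 2.06 and 3.80 CPM in those groups (log2 -0.86, edgeR adjusted p = 0.0105, and 0.0530 without WT mTEClo replicate 3). Tas1r2, the sweet subunit, was higher in WT mTEChi, at 1.01 CPM against 0.125 CPM in WT mTEClo (edgeR adjusted p = 0.000422), opposite to the bitter receptors. For the genotype in mTEClo, Tas1r2 was the 1 of the 3 called, and it was lower, with 0 fragments in each cHyper mTEClo library and 2, 6 and 4 in the WT mTEClo libraries (edgeR adjusted p = 0.0391). That call ended without any 1 of the 3 cHyper mTEClo libraries, WT mTEClo replicates 2 or 3, cHyper mTEChi replicate 3 or WT mTEChi replicate 3 (0.0509 to 0.107).

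Tuft cell markers moved with the bitter receptors. Of 14 listed markers, 10 were called lower and 1 higher in cHyper mTEChi, and 10 lower and none higher in WT mTEChi, where 25.8% of all genes tested were called lower in cHyper and 29.4% in WT. With the replicate number as a block 2 were higher in cHyper mTEChi. Their summed level was 204 to 267 CPM in cHyper mTEChi, 211 to 256 in WT mTEChi, 486 to 682 in cHyper mTEClo and 776 to 1060 in WT mTEClo, with no marker at 0 in any group. In mTEClo, 8 of 14 were called lower in cHyper than in WT (4.64% of all genes) and 1, the prostaglandin D synthase gene Hpgds, higher, and the lower count fell to 3 without cHyper mTEClo replicate 2 or WT mTEClo replicate 3. Alox5, the lipoxygenase of leukotriene synthesis, averaged 42.1 CPM in cHyper mTEClo and 97.3 in WT mTEClo (log2 -1.21, edgeR adjusted p = 0.00166). Il25 averaged 3.08 and 8.34 CPM in those groups (log2 -1.45, edgeR adjusted p = 0.00881). Pou2f3, the tuft cell transcription factor, averaged 38.7 CPM in cHyper mTEClo and 39.5 in WT mTEClo (log2 -0.02, edgeR adjusted p = 0.97). In mTEChi it was higher in cHyper, at 34.8 CPM against 22.1 CPM in WT (log2 0.66, edgeR adjusted p = 0.0218), a call that ended without cHyper mTEChi replicate 1, WT mTEChi replicate 2 or WT mTEChi replicate 3 (0.104 to 0.146). In bulk RNA, fewer cells of a type and less RNA per cell cannot be told apart.

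Set against the sum of the 14 tuft cell markers, the receptors still separated the cell types, and the genotypes in mTEClo. Against Gnat3 or Trpm5 alone they did not separate the genotypes. Per 1000 fragments of the 14 markers, the family had 21.2 ± 6.19 fragments in cHyper mTEChi, 21.9 ± 4.94 in WT mTEChi, 50.1 ± 3.80 in cHyper mTEClo and 71.2 ± 2.99 in WT mTEClo (SD, n = 3 each). The cHyper mTEClo libraries, at 47.0 to 54.3, lay below the WT mTEClo libraries, at 68.6 to 74.4. Per 1000 fragments of Gnat3 the family had 377 to 678 in cHyper mTEChi, 521 to 550 in WT mTEChi, 494 to 742 in cHyper mTEClo and 623 to 802 in WT mTEClo. On this measure the WT mTEChi libraries lay below the WT mTEClo libraries, while the cell types overlapped in cHyper and the genotypes overlapped in both cell types. Per 1000 fragments of Trpm5 both mTEChi groups lay below both mTEClo groups. The mTEChi values were 128 to 190 in cHyper and 145 to 189 in WT. Those of mTEClo were 274 to 376 in cHyper and 375 to 455 in WT. On this measure too the genotypes overlapped in both cell types. The part of tuft cell number in the family's differences was not tested.

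Markers of other cell types also changed between the cell types. Myeloid markers, all 5 called higher in mTEChi in each genotype, summed to 472 to 525 CPM in cHyper mTEChi, 469 to 629 in WT mTEChi, 27.7 to 45.4 in cHyper mTEClo and 28.2 to 32.3 in WT mTEClo. B cell markers, all 3 higher, summed to 11.8 to 15.3 CPM in cHyper mTEChi, 14.8 to 17.0 in WT mTEChi, 0.326 to 1.29 in cHyper mTEClo and 0.469 to 1.09 in WT mTEClo. Also called higher in mTEChi in each genotype were 5 of 6 neuroendocrine markers, 3 of 3 endothelial markers and 4 of 4 keratinocyte markers, and of 7 thymocyte markers 2 were in cHyper and 6 in WT. Over all genes tested, 38.7% were called higher in cHyper mTEChi and 40.2% in WT mTEChi. The 2 of 7 thymocyte markers in cHyper did not exceed that share.

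Some of these lists moved with the genotype in mTEClo, where the receptors were lower in cHyper. Fibroblast markers summed to 61.3 to 111 CPM in cHyper mTEClo and 27.6 to 33.2 in WT mTEClo, without overlap, with 2 of 4 called higher and 1 lower. Keratinocyte markers summed to 49.2 to 75.0 CPM in cHyper mTEClo and 31.0 to 44.3 in WT mTEClo, also without overlap, with 0 of 4 called. Thymocyte markers summed to 14.5 to 33.0 CPM in cHyper mTEClo and 2.12 to 17.9 in WT mTEClo, with 0 of 7 called. Of 6 neuroendocrine markers 2 were called lower in cHyper mTEClo, of 4 ciliated cell markers 1 higher, and of 5 myeloid markers 1 lower. Over all genes tested, 4.64% were called lower and 4.53% higher in cHyper mTEClo. Aire itself was at 44.5 CPM in cHyper mTEClo and 14.3 in WT mTEClo (log2 1.64, edgeR adjusted p = 2.39e-05). None of these lists had a marker at 0 over any group, and their part in the receptor results was not tested.

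Other chemoreceptor families ran opposite to the bitter receptors between the cell types. Vmn1r genes, vomeronasal receptors of type 1, summed to 27.7 ± 3.10 CPM in cHyper mTEChi and 9.85 ± 0.703 in cHyper mTEClo, and to 38.0 ± 0.623 in WT mTEChi and 8.71 ± 1.36 in WT mTEClo (SD, n = 3 each). Of 229 genes 205 had a fragment in some library, 196 of them in WT mTEChi and 28 in WT mTEClo. Of the 32 that could be tested, 30 were called higher in mTEChi in each genotype and none lower, where 38.7% of all genes tested were called higher in cHyper mTEChi and 40.2% in WT mTEChi. Vmn2r genes, vomeronasal receptors of type 2, summed to 44.7 ± 2.07 CPM in WT mTEChi and 23.5 ± 0.940 in WT mTEClo, with 23 of 30 tested genes called higher and 3 lower. Trace amine receptors (Taar) had 15 of 15 genes with a fragment in WT mTEChi and 1 of 15 in WT mTEClo, and 7 of 7 tested genes were called higher in WT mTEChi. Members of these families that passed the filter through mTEChi alone had to be higher there. No gene of the 3 families was called for the genotype in either cell type. Their sums were nevertheless lower in cHyper mTEChi than in WT mTEChi, without overlap. Vmn1r had 24.1 to 29.6 CPM against 37.3 to 38.5, Vmn2r 26.6 to 32.6 against 42.9 to 46.9, and Taar 1.69 to 3.60 against 3.83 to 4.50. In mTEClo only Vmn2r was without overlap, at 18.8 to 20.6 CPM in cHyper and 22.7 to 24.5 in WT. Bitter receptors were thus the family among these 4 with more RNA in mTEClo.

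**Figure D4:**
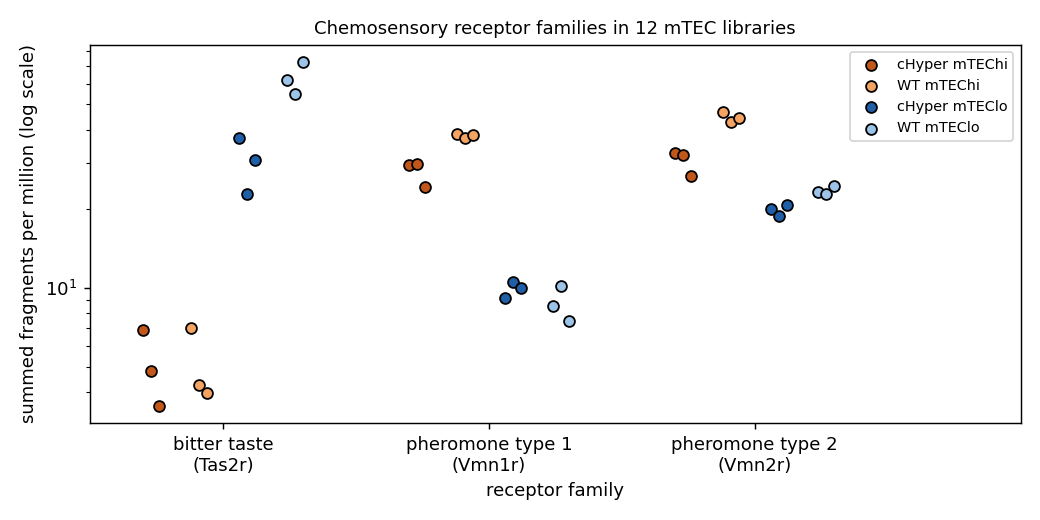
Summed CPM (log scale) of the bitter taste receptor genes and of vomeronasal receptor genes of type 1 and type 2 in each library (points, coloured by group). Bitter receptors lie between 3.53 and 7.04 CPM in mTEChi and above 22 CPM in mTEClo, whereas both vomeronasal families lie above 24 CPM in mTEChi and below 25 CPM in mTEClo.

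The proline-rich protein genes that lie among the distal receptors did not share their pattern. Of 5 listed, 4 were matched, and their sum was 1.82 to 3.32 CPM in WT mTEChi and 0.234 to 0.637 in WT mTEClo. Of 3 tested, 2 were called higher in cHyper mTEChi and all 3 in WT mTEChi, with none called for the genotype. Over all genes tested, 38.7% were called higher in cHyper mTEChi and 40.2% in WT mTEChi. Of the 4 matched genes, 2 had no fragment in cHyper mTEClo and 3 had none in WT mTEClo. Those that passed the filter through mTEChi alone had to be higher there, so these counts are only a description.

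Sequence likeness bears on how well members can be told apart. Across 595 pairs of transcripts (GENCODE M21), identity had a median of 63.9% and a highest value of 86.3%, and 3 pairs shared an identical run of at least 50 bases. The median identity of a member to its closest relative was 69.6%. The sources used here give neither the read length nor the handling of reads with several matches, and the closest pairs, Tas2r110 with Tas2r123 and Tas2r109 with Tas2r117, are the least certain.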

How the data were processed

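RNA of sorted mTEC was deposited by the authors as 1 table with fragment counts, TPM and gene lengths for 12 libraries; the 20 labelled samples include 2 sequencing runs for replicates 1 and 2, joined in the table. The submitters' processing notes name the build mm10, featureCounts from Subread 2.0.1, TopHat2 2.1.1 and SAMtools 1.9. Strand setting, annotation release and filters are unstated in the sources used here. The deposited TPM served only to compare levels between genes. Per-sample columns of the table that matched no own label, 1 in number, were not used. The main test on the deposited counts was edgeR's quasi-likelihood F test (edgeR 4.0.16, R 4.3.3; TMM scaling, filterByExpr by group, 12 libraries in 1 fit, 8 residual degrees of freedom), with Benjamini-Hochberg adjustment over 28932 genes, and calls at an adjusted p under 0.05. The SE of a log2 fold change was derived from that test, as the absolute log2 fold change divided by the square root of F. DESeq2 1.42.0 and limma-voom (limma 3.58.1) were alternatives. Olfactory receptor genes were not analysed here. A fold against a group at 0 used a floor of 3 fragments over the group. Members called in any comparison are named with their value in every library; outside that rule, Tas2r113 and Tas2r125 were singled out after their values were seen. Members, lists and motifs were chosen with earlier results of these data known. Same-numbered libraries deviated together, at correlations over 0.1 in each of the 3 pairs, for cHyper against WT in mTEChi (0.136 to 0.206) and for mTEChi against mTEClo in cHyper (0.104 to 0.125), so the numbers pair those groups in the data; no label says what they share. For cHyper against WT in mTEClo the lowest was 0.0972 and for the cell types in WT 0.0930. The alternatives are in the closing section.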

Additional observations from a re-analysis of the deposited data

Results flagged for a closer look

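Tas2r129 had every cHyper library above every WT library in mTEChi, at a mean of 0.129 CPM in cHyper mTEChi and 0.0430 CPM in WT mTEChi, and every cHyper library below every WT library in mTEClo, at 0.697 CPM in cHyper mTEClo and 1.68 CPM in WT mTEClo. The opposite directions drew attention to it; the difference between the 2 effects did not pass the test (log2 2.59, edgeR adjusted p = 0.110). Alox5, a tuft cell marker, had genotype effects that differed between the cell types by 1.32 on the log2 scale (edgeR adjusted p = 0.0321). Its call ended without WT mTEClo replicates 1 or 3, cHyper mTEChi replicates 1 or 3, or WT mTEChi replicates 2 or 3 (edgeR adjusted p = 0.0521 to 0.0944). Groups of 3 libraries are too small for a test of single outlying libraries.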

How the results depend on the processing

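Members called lower in cHyper mTEClo numbered 6 in the main analysis, 12 without the filter, 11 with only the compared groups in the fit, 13 with limma-voom, 12 with DESeq2, 2 with replicates 1 and 2 alone, and 1 to 6 with 1 library left out. DESeq2 size factors or library totals as scaling gave 5. With the replicate number as a block 8 were called in mTEClo, where 1 of 3 pairs of same-numbered libraries correlated under 0.1 (0.0972). In the comparisons where every pair was over 0.1, the block left the members called at 25 for the cell types in cHyper and 0 for the genotype in mTEChi. Of the 10 signalling genes the block called 8 lower in cHyper mTEClo, against 4, and 4 for the difference between the genotype effects, against 0. Members called lower in mTEChi numbered 20 to 26 in cHyper, where 20 was with only the compared groups in the fit, and 28 to 29 in WT. The genotype comparison in mTEChi gave 0 under every alternative run. The difference between the genotype effects gave 1 without the filter, 2 with DESeq2, and 0 otherwise. Library totals as scaling moved the median log2 of all genes between the cell types of WT to 0.34, with 6275 genes lower and 13110 higher, against 8493 and 11626; no named member changed direction. The ratio of summed levels in mTEClo stayed between 0.423 and 0.536. At least 3 fragments were reached by a mean of 14.7 members in WT mTEChi and 29 in cHyper mTEClo, and 30.6 members were expected in cHyper mTEClo at the lowest depth, against 22 and 31.3 members with any fragment. Depth limits single members in mTEChi, where most had under 10 fragments a library.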
